A study of Mus musculus with 30 samples.

Results

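The Foxp3 locus was taken as every ATAC-seq peak within 20 kb of the Foxp3 gene body on mouse chromosome X (build mm10), which gave 12 of the 69316 peaks of the table of 26 libraries. ATAC-seq counts transposase insertions, so a peak's score is a measure of how accessible that stretch of chromatin was. The 12 peaks were followed over 13 groups of mouse T cells with 2 libraries each, all from lymph nodes and spleen. Every mouse carried a human CD2 (hCD2) reporter behind an IRES in Foxp3, the conventional T cells included. Regulatory T cells (WT Treg) were CD4+hCD2+ cells of Foxp3-IRES-hCD2 mice, and WT Tconv, the conventional cells, were CD4+hCD2-. Central Treg (cTreg) were hCD2+ cells whose gate included high CCR7 and low CD44, and effector Treg (eTreg) were hCD2+ cells whose gate included low CCR7. Naive (Tnaive) and effector (Teff) conventional cells were gated the same ways among hCD2- cells. BATFKO Treg were hCD2+ cells of Foxp3-IRES-hCD2 Batf-/- mice. Foxp3R397W Treg carried a Foxp3 allele with a substitution on the hCD2 allele and Foxp3-IRES-GFP on the other, and were sorted hCD2+GFP-. Their WT control Treg carried wild-type Foxp3 on the hCD2 allele and were sorted alike. The 4 DKO groups were Foxp3KO-IRES-hCD2 Batf-/- Treg given mock, Foxp3, BATF or both retroviruses and sorted as CD4+hCD2+ cells that were also CD45.2+CD45.1- and positive for GFP and Thy1.1. The names of all DKO libraries hold the word vivo, which marks them as in vivo without further detail. The strain was C57BL6/J except for the DKO groups, where it was not stated. Age, sex, the viral promoter and any host of the DKO cells were not given, and no label says that the 2 libraries of a group came from separate animals, so p-values reflect only how far these libraries spread.

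Foxp3 encodes the forkhead transcription factor that defines Treg. Its transcription depends on a promoter and on conserved non-coding sequences (CNS) in and before the gene. CNS1 serves induction of Foxp3 outside the thymus, CNS2 (also called TSDR) is demethylated in stable Treg and keeps the gene on through division, and CNS3 and the upstream CNS0 take part in starting the gene in the thymus. Flicr is a long non-coding RNA that starts before Foxp3 and runs into it, and Ppp1r3f, a regulatory subunit of a phosphatase, and Ccdc22, a protein of endosomal sorting, are the neighbouring genes. Because Treg were sorted by a reporter of Foxp3 transcription, the Treg and conventional groups were selected on the output of the locus measured here. In bulk libraries, a lower score in each cell and a smaller share of open cells cannot be told apart.

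All 12 peaks had the same width. The peak over the gene start (chrX:7579463-7579863) is called the promoter. CNS2 is chrX:7583922-7584322, CNS3 is chrX:7586439-7586839 and CNS0 is chrX:7570756-7571156. No peak overlapped the CNS1 window, +2.0 to +2.7 kb from the start. The other peaks are named by the distance of their centre from the start. The peaks at -14.0 kb (chrX:7565439-7565839), -13.1 kb (chrX:7566360-7566760), -12.0 kb (chrX:7567432-7567832) and -7.1 kb (chrX:7572383-7572783) lay, like CNS0, in the body of Ppp1r3f. The peak at -4.9 kb (chrX:7574548-7574948) lay in Flicr, just before the start of Ppp1r3f on the other strand. The peak at +8.0 kb (chrX:7587522-7587922) lay in Foxp3, and that at +15.6 kb (chrX:7595106-7595506) covered the 3′ end of Foxp3 and lay inside the body of Ccdc22, which runs the other way and ends within Foxp3. The peak at +25.7 kb (chrX:7605224-7605624) covered the Ccdc22 start. Exons and introns were not analysed here, so peaks are placed only against gene bodies.

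The promoter sequences below show how the accessible start of Foxp3 differs in base composition from those of its neighbours. Each line holds the 250 bases before an annotated start, 5′ to 3′ on the gene's strand, with CG dinucleotides in capitals, the sites where DNA methylation can act.
Foxp3 (chrX:7579426-7579675, + strand): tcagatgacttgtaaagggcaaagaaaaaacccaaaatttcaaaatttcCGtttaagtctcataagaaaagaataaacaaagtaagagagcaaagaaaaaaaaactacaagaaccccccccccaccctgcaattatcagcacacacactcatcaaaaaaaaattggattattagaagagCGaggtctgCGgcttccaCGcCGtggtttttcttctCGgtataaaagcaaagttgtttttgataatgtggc
Ppp1r3f (chrX:7574282-7574531, - strand): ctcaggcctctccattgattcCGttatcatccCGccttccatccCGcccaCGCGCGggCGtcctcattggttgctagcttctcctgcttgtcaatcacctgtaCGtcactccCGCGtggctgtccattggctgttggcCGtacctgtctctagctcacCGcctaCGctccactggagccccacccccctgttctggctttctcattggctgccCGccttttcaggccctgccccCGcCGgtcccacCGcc
Ccdc22 (chrX:7605421-7605670, - strand): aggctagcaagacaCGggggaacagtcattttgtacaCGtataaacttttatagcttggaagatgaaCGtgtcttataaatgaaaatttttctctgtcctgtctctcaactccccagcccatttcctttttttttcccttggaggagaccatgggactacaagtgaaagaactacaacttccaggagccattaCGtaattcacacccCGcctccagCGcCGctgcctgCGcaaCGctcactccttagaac
The sequences are from RefSeq (GRCm38). Foxp3 held 6 CG in 250 bases, the median of 32851 annotated promoters, against 17 in Ppp1r3f and 9 in Ccdc22, and its GC content was 37.6% against a median of 52.4%. It held 1 TATAAA, 32 bases before the start, a match that 12.4% of promoters hold. No match on either strand was found in that window for the AP-1 letters TGANTCA, the forkhead letters TGTTTAC, the NFAT core GGAAAA or the GATA letters AGATAA. These occur in 6.75%, 3.17%, 20.4% and 9.99% of promoters. None of the 5 motifs contains another. Foxp3 has a second annotated start further into the gene, whose 250 bases (chrX:7580233-7580482) overlapped no peak. They held 7 CG, an NFAT core match at -141 and a GATA match at -47, and no match to the other letters. The window before Flicr, which also overlapped no peak, held 19 CG and none of the 5 motifs.

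The names of the libraries have to be read with care. A second table of 22 libraries holds the same reads for 18 of the 26-table's libraries, and gives 12 of them another name. Matched at 4478 peaks with identical positions, the shared libraries agreed in 98.0% to 99.98% of values, and no other pair agreed in more than 3.35%. The naming bears directly on Foxp3. The 2 libraries called Tnaive in the 26-library table are called Foxp3KO control Treg in the other, and those called Teff are called Foxp3KO Treg. In the 22-library table their CNS2 scores averaged 4.54 and 8.47, while the WT Treg, named alike in both, averaged 311. Conversely, 4 libraries found only in the 22-library table and named there Tnaive and Teff averaged 1059.8 and 714 at CNS2. The mean score over all peaks was 307 to 323 in those 4 libraries against 93.9 and 105 in the WT Treg, so their height above WT Treg goes with their scale. Under the names of the 22-library table, CNS2 was therefore low in a pair of Treg groups and high in naive and effector conventional cells. The 26-library names are used from here on, as each result that involves cTreg, eTreg, Tnaive, Teff or Foxp3R397W rests on them. The WT Treg, WT Tconv and BATFKO libraries carry the same name in both tables, and the DKO libraries are only in the 26-library table.

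Recovered reads in peaks ran from 3716499 (a Tconv library) to 25462278 per library. ATAC-seq and omniATAC-seq libraries differ in lysis and transposase. By title, the Foxp3R397W, control and DKO libraries are omniATAC under the names used here. Libraries with conflicting names would have the opposite protocol under their other names. The summed score of 27 peaks at 4 T cell genes was 4928 to 8831 in the omniATAC libraries and 2447 to 3010 in the others. Among libraries with conflicting names, it was 4928 to 5695 in Foxp3R397W and control and 2447 to 3003 in cTreg, eTreg, Tnaive and Teff. It was 2461 to 3010 in WT Treg, WT Tconv and BATFKO Treg, whose names do not conflict. By these sums the protocols followed the names used here, while the cell names themselves were not tested. Levels are compared only within contrasts of 1 protocol. Each contrast was tested with limma on log2(score + 1) over all peaks, and a peak was called at a Benjamini-Hochberg adjusted p under 0.05.

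**Figure D1:**
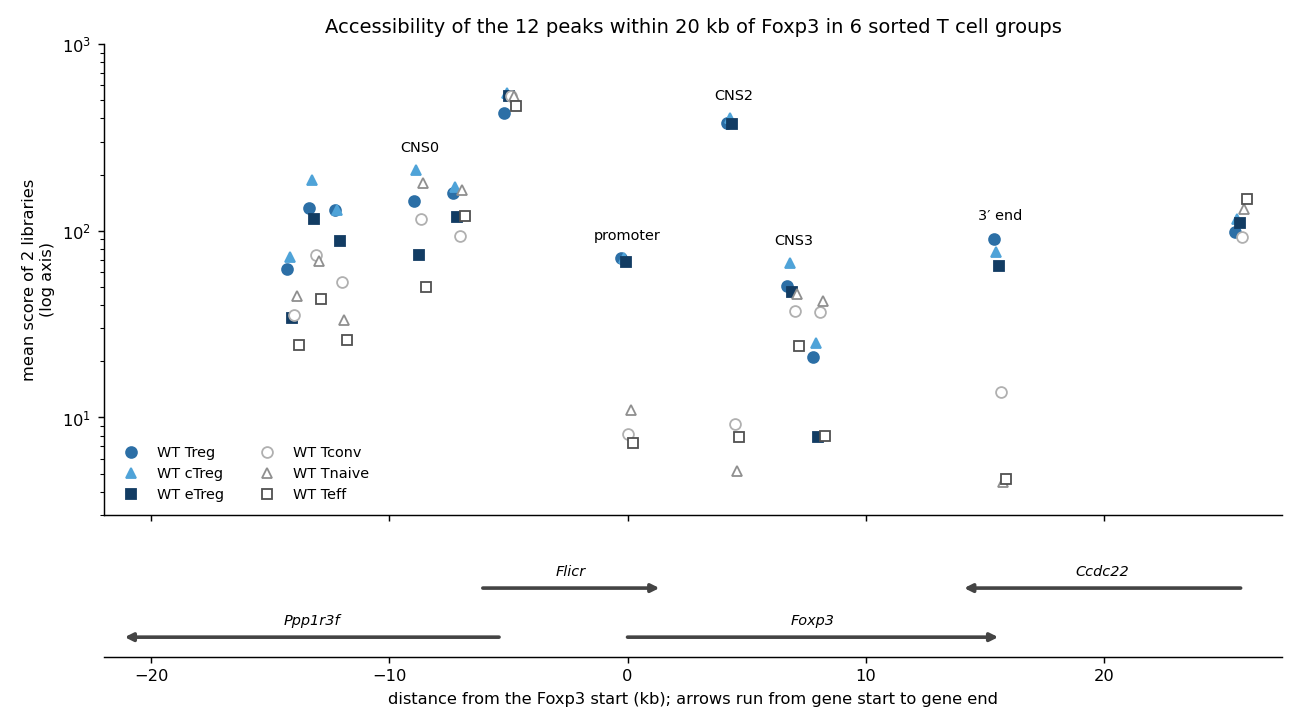
Mean score (log axis) of the 12 peaks in 6 groups of freshly sorted cells against distance from the Foxp3 start in kb, with gene bodies as arrows below. Filled Treg symbols and open conventional symbols lie far apart at the promoter, CNS2 and the 3′ end, and close together at -4.9 kb and +25.7 kb.

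Treg differed from conventional T cells at 5 of the 12 peaks: the promoter, CNS2, the 3′ end and the upstream peaks at -12.0 and -13.1 kb, all higher in Treg. CNS2, the element of stable Foxp3 expression, showed the greatest difference. It scored 365 and 392 in WT Treg and 4.90 and 13.6 in WT Tconv. The Tconv values rest on 3 and 6 reads, so the size of the ratio is poorly fixed while the gap between groups is wide. The log2 difference was 5.35 (SE 0.50, adjusted p = 7.7e-07, limma). At the promoter the scores were 55.0 and 87.8 in WT Treg against 4.90 and 11.4 in WT Tconv, a log2 difference of 3.05 (SE 0.31, adjusted p = 2.1e-08, limma). The 3′ end peak scored 86.8 and 94.9 against 11.4 and 15.9, a log2 difference of 2.66 (SE 0.44, adjusted p = 6.5e-05, limma). The groups did not overlap at any of these peaks. The upstream peaks differed less. At -12.0 kb the mean was 129 in WT Treg and 53.4 in WT Tconv (log2 1.20), and at -13.1 kb it was 133 and 74.4 (log2 0.83). Without WT Treg library 2, which leaves 1 library in that group, neither was called (log2 0.81, adjusted p = 0.065 at -12.0 kb, and log2 0.77, adjusted p = 0.079 at -13.1 kb, limma). Without Tconv library 2 the -13.1 kb peak was not called either (log2 0.75, adjusted p = 0.084, limma), while its difference stayed close to the full value. Of all peaks, 10.1% were called higher in WT Treg and 9.92% lower, against 5 and 0 of the 12. CNS0 (145 against 115), CNS3 (50.6 against 37.3) and the peak at -4.9 kb (426 against 526) were not called. In the 22-library table, which holds these groups under the same names with another peak set and scaling, CNS0 (log2 0.55, adjusted p = 0.027), -14.0 kb (0.997, 0.0074) and -7.1 kb (0.94, 0.0018) were called higher as well (limma). With quantile normalization -14.0 kb was also called (log2 1.06, adjusted p = 0.011, limma).

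The same 5 peaks were called in resting cells, cTreg against Tnaive. CNS2 scored 435 and 370 in cTreg and 1.28 and 9.07 in Tnaive, the latter being 1 and 7 reads, and the log2 difference was 6.39 (SE 0.50). The 3′ end scored 66.7 and 87.1 in cTreg and 1.28 and 7.77 in Tnaive (log2 4.11, SE 0.44). The promoter scored 75.5 and 67.2 against 8.94 and 12.96 (log2 2.62, SE 0.31). The upstream peaks had means of 129.6 and 33.5 at -12.0 kb (log2 1.91) and of 188 and 68.8 at -13.1 kb (log2 1.42). Adjusted p-values at the 5 peaks ran from 7.2e-08 to 4.0e-05 (limma). The background was 8.80% of all peaks higher and 7.82% lower.

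In effector cells, eTreg against Teff, 7 peaks were higher in Treg and none lower, where 8.40% of all peaks were called higher and 9.07% lower. CNS2 scored 381 and 363 in eTreg and 7.84 and 7.83 in Teff (log2 5.40), the promoter 76.4 and 59.7 against 7.84 and 6.85 (log2 3.04), and the 3′ end 59.8 and 69.1 against 3.48 and 5.87 (log2 3.56). The peaks at -12.0 kb (log2 1.73) and -13.1 kb (log2 1.40) were called too. CNS3, the element that helps to start Foxp3, scored 44.3 and 49.2 in eTreg and 27.0 and 21.5 in Teff (log2 0.92, SE 0.27, adjusted p = 0.015, limma). CNS0 scored 62.0 and 86.6 against 51.4 and 48.9 (log2 0.54, SE 0.19, adjusted p = 0.049, limma). Leaving out a library ended these last calls, with a difference of similar size in most cases. At CNS3 the log2 difference was 0.998 without eTreg library 1 (adjusted p = 0.052), 0.85 without eTreg library 2 (0.11) and 0.77 without Teff library 2 (0.16). At CNS0 it was 0.57 without Teff library 1 (0.13), 0.50 without Teff library 2 (0.21) and 0.30 without eTreg library 2 (0.51). The CNS0 call was also lost with a pseudocount of 5 (0.053), edgeR (0.12), plain eBayes (0.082) and only these groups in the fit (0.095).

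Over all 13 groups, 5 peaks of the locus had every Treg library above every conventional library: the promoter, CNS2, the 3′ end and those at -12.0 and -13.1 kb. Of all peaks 0.705% lay apart in that direction and 1.39% in the other. This count crosses protocols, since the conventional libraries are ATAC and 12 of the 20 Treg libraries omniATAC by title. With the 8 Treg libraries titled ATAC alone, the same 5 peaks lay above the 6 conventional libraries, where 2.54% of all peaks lay above and 2.74% below. At CNS2 the 20 Treg libraries ran from 316 to 1119 (median 405) and the 6 conventional libraries from 1.28 to 13.6 (median 7.83). The 8 ATAC Treg libraries held 316 to 435 there, 55.0 to 87.8 at the promoter and 47.1 to 105 at the 3′ end. Over all 20 Treg and the 6 conventional libraries, the promoter ranges were 55.0 to 160 (median 90.8) and 4.90 to 12.96 (median 8.39), and at the 3′ end 39.5 to 165 (median 95.0) and 1.28 to 15.9 (median 6.82). The gap narrowed upstream: at -12.0 kb the Treg libraries began at 76.4 and the conventional ones ended at 54.5, and at -13.1 kb at 103 and 78.4. The peak at -4.9 kb, next to the start of Ppp1r3f, held 356 to 862 in Treg and 416 to 587 in conventional libraries. The Ccdc22 start peak held 95.8 to 199 and 86.3 to 156. The 3 peaks at -7.1 kb, -4.9 kb and +25.7 kb were called in none of the 14 contrasts in the limma fit of all libraries, though -7.1 and -4.9 kb were called under some alternatives, given here and with the viruses. That at -7.1 kb, between CNS0 and the Ppp1r3f start, held 118 to 481 in Treg and 88.6 to 185 in conventional libraries. Its difference between WT Treg and Tconv (159 against 94.1, log2 0.73, adjusted p = 0.070 in limma) passed the threshold with quantile normalization (0.0039) and with only these groups in the fit (0.033). Among the 28 peaks 20 to 200 kb from Foxp3, 1 was called higher in WT Treg than in WT Tconv and 1 lower, 3 and 2 in cTreg against Tnaive, and 1 and 2 in eTreg against Teff. Their median log2 differences were 0.048, -0.092 and -0.24, against 0.77, 0.57 and 0.73 over the 12 locus peaks. Other Treg marker genes differed as well, and 91 peaks at Ikzf2, Il2ra, Ctla4 and Lrrc32 summed to 9483 to 10387 in WT Treg and 5610 to 6537 in Tconv. The summed score of 12 peaks at 5 CD8 and NK cell genes was 576 to 611 in WT Treg and 1247 to 1354 in Tconv, 983 to 1135 in cTreg and 1775 to 1944 in Tnaive, and 202 to 229 in eTreg and 453 to 552 in Teff. The part of such cells in the Treg differences was not tested.

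**Figure D2:**
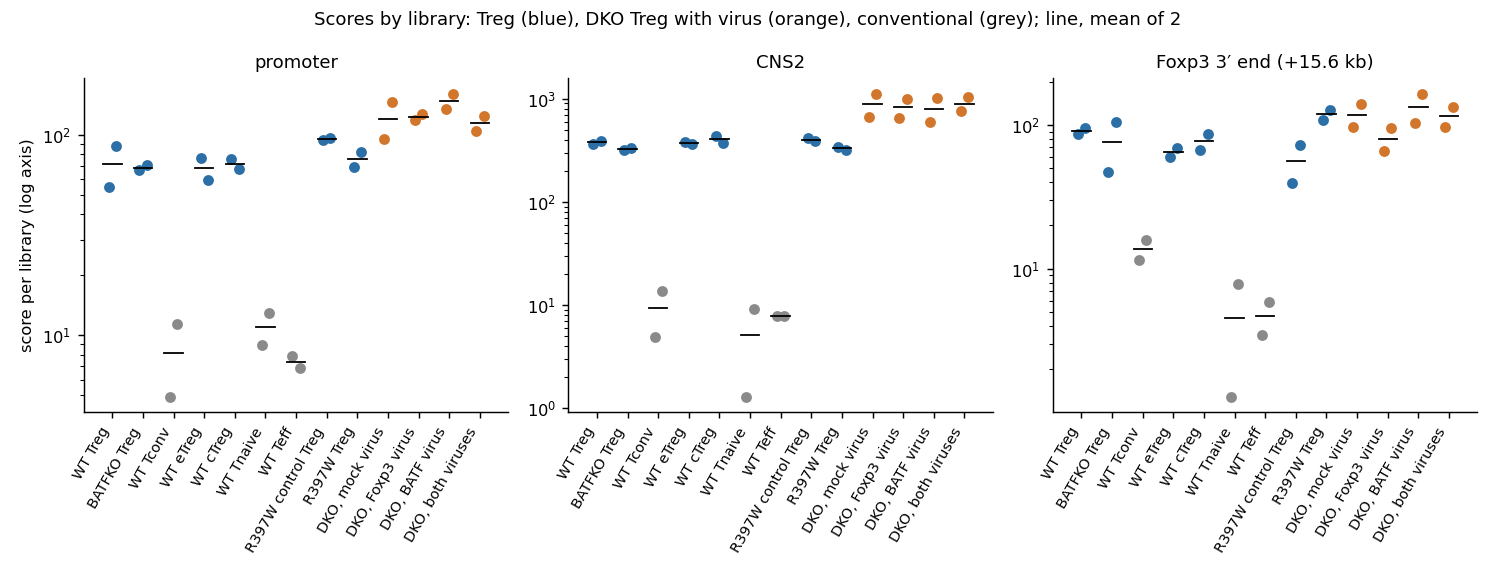
Score of each library (log axis) at the promoter, CNS2 and the Foxp3 3′ end in all 13 groups, with the mean of 2 libraries as a line. Every blue or orange Treg point lies above every grey conventional point in each panel, with the conventional libraries at CNS2 between 1.28 and 13.6.

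The order of the groups at CNS2 set the 4 DKO groups first, at means of 897 ± 202 with both viruses, 892 ± 321 with mock, 824 ± 239 with Foxp3 and 802 ± 292 with BATF (SD, n = 2). These 4 overlapped one another. Next came cTreg at 403 ± 46.1, the Foxp3R397W control at 401.3 ± 22.9, WT Treg at 379 ± 18.8 and eTreg at 372 ± 12.9, each overlapping its neighbour in the order. Foxp3R397W at 329 ± 14.3 and BATFKO at 326 ± 14.4 followed, overlapping each other and lying below eTreg. Last were Tconv at 9.27 ± 6.18, Teff at 7.83 ± 0.0080 and Tnaive at 5.17 ± 5.51, which overlapped (SD, n = 2 in each). The order across protocols is a listing only, since the DKO, Foxp3R397W and control libraries are omniATAC by title. The promoter means followed a similar split, from 148 ± 18.0 with BATF virus, 122.9 ± 6.42 with Foxp3 virus, 120 ± 35.9 with mock and 115 ± 13.8 with both, through 95.0 ± 1.76 in the Foxp3R397W control, 75.6 ± 8.97 in Foxp3R397W, 71.4 ± 23.2 in WT Treg, 71.4 ± 5.88 in cTreg, 68.6 ± 3.04 in BATFKO and 68.1 ± 11.8 in eTreg, to 10.9 ± 2.84 in Tnaive, 8.13 ± 4.57 in Tconv and 7.34 ± 0.70 in Teff (SD, n = 2). Each group from Foxp3R397W to eTreg overlapped the next, as did the 3 conventional groups, and eTreg and Tnaive did not overlap. CNS0 was ordered otherwise, with Tnaive at 179 above BATFKO at 174, WT Treg at 145 and eTreg at 74.3, and Teff last at 50.1.

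The peaks elsewhere in the genome whose group means most resembled CNS2 lay in or near Lrrc32, Bach2, Myrfl, Emsy and Icos. Likeness was Pearson's r of the 13 group means of log2(score + 1), among 33252 peaks above the median score and over 100 kb from Foxp3. A peak in Lrrc32, which encodes the latency receptor GARP, reached r = 0.995 (chr7:98491686-98492086). A peak in Bach2, a repressor of effector programs, reached 0.991 (chr4:32405882-32406282), and a peak in Myrfl 0.987 (chr10:116895126-116895526). Peaks near Emsy (chr7:98564641-98565041), a neighbour of Lrrc32 on that chromosome, and near Icos (chr1:60953667-60954067), a costimulatory receptor, each reached 0.975. The points share the protocol differences among groups and the split between 10 Treg and 3 conventional groups. Over the 10 Treg groups alone, r was 0.967 for Lrrc32, 0.792 for Bach2, 0.752 for Myrfl, 0.971 for Emsy and 0.925 for Icos. Within the locus, r with CNS2 over the 13 groups was 0.982 for the promoter, 0.964 for the 3′ end, 0.920 at -12.0 kb, 0.904 at -13.1 kb and 0.816 for CNS3. It was 0.618 for CNS0, 0.190 at -4.9 kb and -0.22 at +8.0 kb. Over the 10 Treg groups alone the order was another. There r with CNS2 was 0.922 at -13.1 kb, 0.907 for the promoter, 0.817 at -7.1 kb and 0.760 at -12.0 kb. It was 0.699 at -4.9 kb, 0.678 for CNS3, 0.648 for CNS0, 0.532 for the 3′ end and -0.22 at +8.0 kb.

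Going from resting to effector cells, a second set of locus peaks fell, most of them in both Treg and conventional cells, while the promoter and CNS2 were not called in either by the limma fit. With quantile normalization the promoter was called lower in Teff than in Tnaive (log2 -1.04, adjusted p = 0.0076), against -0.50 (adjusted p = 0.20) without it. CNS0, the upstream element, had the smallest adjusted p of the locus in both. It scored 220 and 203 in cTreg and 62.0 and 86.6 in eTreg, a log2 difference of -1.52 (SE 0.19, adjusted p = 2.5e-07, limma). In conventional cells it scored 185 and 174 in Tnaive and 51.4 and 48.9 in Teff, a log2 difference of -1.82 (SE 0.19, adjusted p = 7.6e-09, limma). Resting and effector libraries did not overlap in either lineage. The peak at +8.0 kb, inside Foxp3, scored 24.9 and 25.3 in cTreg and 11.1 and 4.68 in eTreg (log2 -1.66, SE 0.43, adjusted p = 0.0029, limma). It scored 42.1 and 41.5 in Tnaive and 5.23 and 10.8 in Teff (log2 -2.32, SE 0.43, adjusted p = 6.7e-05, limma). These are among the lowest scores of the locus, with 4 to 11 reads in the effector libraries. The -14.0 kb peak fell from a mean of 72.0 in cTreg to 34.1 in eTreg (log2 -1.0) and from 44.98 in Tnaive to 24.5 in Teff (log2 -0.84). The -13.1 kb peak fell from 188 to 115 (log2 -0.69) and from 68.8 to 43.0 (log2 -0.67). In Teff against Tnaive neither was called with edgeR (adjusted p = 0.090 and 0.067) or plain eBayes (0.094 and 0.051). In eTreg against cTreg plain eBayes lost -14.0 kb (0.0503). The -12.0 kb peak was called lower in eTreg than in cTreg under some alternatives only. These were edgeR (log2 -0.62, adjusted p = 0.044), quantile normalization (-0.65, 0.040) and only these groups in the fit (-0.55, 0.041). CNS3 fell in conventional cells from 45.7 to 24.3 (log2 -0.89, adjusted p = 0.0084, limma). In Treg it held 54.2 and 80.5 in cTreg and 44.3 and 49.2 in eTreg, and was not called (log2 -0.49). In all, 4 peaks were lower and 0 higher in eTreg than in cTreg, where 17.4% of all peaks were called lower and 19.7% higher. In Teff against Tnaive, 5 were lower and 0 higher, against 19.6% and 20.7% of all peaks.

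CNS2 held 435 and 370 in cTreg and 381 and 363 in eTreg, a log2 difference of -0.11 with a 95% interval of -1.17 to 0.95. That interval rests on a spread pooled over all 13 groups: the SD of log2(score + 1) was 0.16 in cTreg, 0.050 in eTreg and 1.52 in Tnaive. The promoter held 75.5 and 67.2 against 76.4 and 59.7, a log2 difference of -0.076 with an interval of -0.70 to 0.55. The groups overlapped at both. The difference between the effector steps of both lineages was tested as an interaction. It was called at none of the 12 peaks with limma, and none had an unadjusted p under 0.05. Across all peaks 3.91% were called. With edgeR it was also called at none. At CNS0 the step differed by 0.30 on the log2 scale (interval -0.25 to 0.86) and at +8.0 kb by 0.67 (interval -0.58 to 1.92). At CNS2, where the Tnaive libraries held 1 and 7 reads, leaving out Tnaive library 2 gave a log2 interaction of -2.07 (adjusted p = 0.011, limma) and a Teff minus Tnaive difference of 1.96 (adjusted p = 1.2e-04, limma). Leaving out a library ended some calls at the weaker peaks. In Treg, without eTreg library 2, the log2 difference was -0.85 at -14.0 kb (adjusted p = 0.13), -0.54 at -13.1 kb (0.17) and -1.11 at +8.0 kb (0.10). Without cTreg library 1 it was -0.57 at -14.0 kb (0.32) and -0.50 at -13.1 kb (0.21). In conventional cells, -14.0 kb was not called when any 1 of the 4 libraries was left out (log2 -1.03 to -0.65, adjusted p 0.055 to 0.25). There -13.1 kb was not called without library 1 of Tnaive (-0.58, 0.13) or Teff (-0.57, 0.14), nor CNS3 without Teff library 2 (-0.74, 0.092). At the flanking 28 peaks, 0 were called higher and 2 lower in eTreg than in cTreg, and 1 and 1 in Teff against Tnaive. Genes marking naive and central cells moved with these groups: 77 peaks at Ccr7, Lef1 and Tcf7 summed to 10312 to 11415 in cTreg, 6778 to 7255 in eTreg, 12683 to 13774 in Tnaive and 8350 to 9138 in Teff. The 67 peaks at 5 effector genes summed to 5380 to 5789 in cTreg, 9775 to 9969 in eTreg, 4960 to 5104 in Tnaive and 9040 to 9402 in Teff. Markers of other cell types moved too. The 4 peaks at the 1 of 4 B cell genes with a peak summed to 58.7 to 93.7 in cTreg and 317 to 322 in eTreg, and to 25.5 to 44.1 in Tnaive and 249 to 264 in Teff. The 12 CD8 and NK peaks were lower in effector cells, as given above with the Treg contrasts. The part of such cells in the effector differences was not tested.

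**Figure D3:**
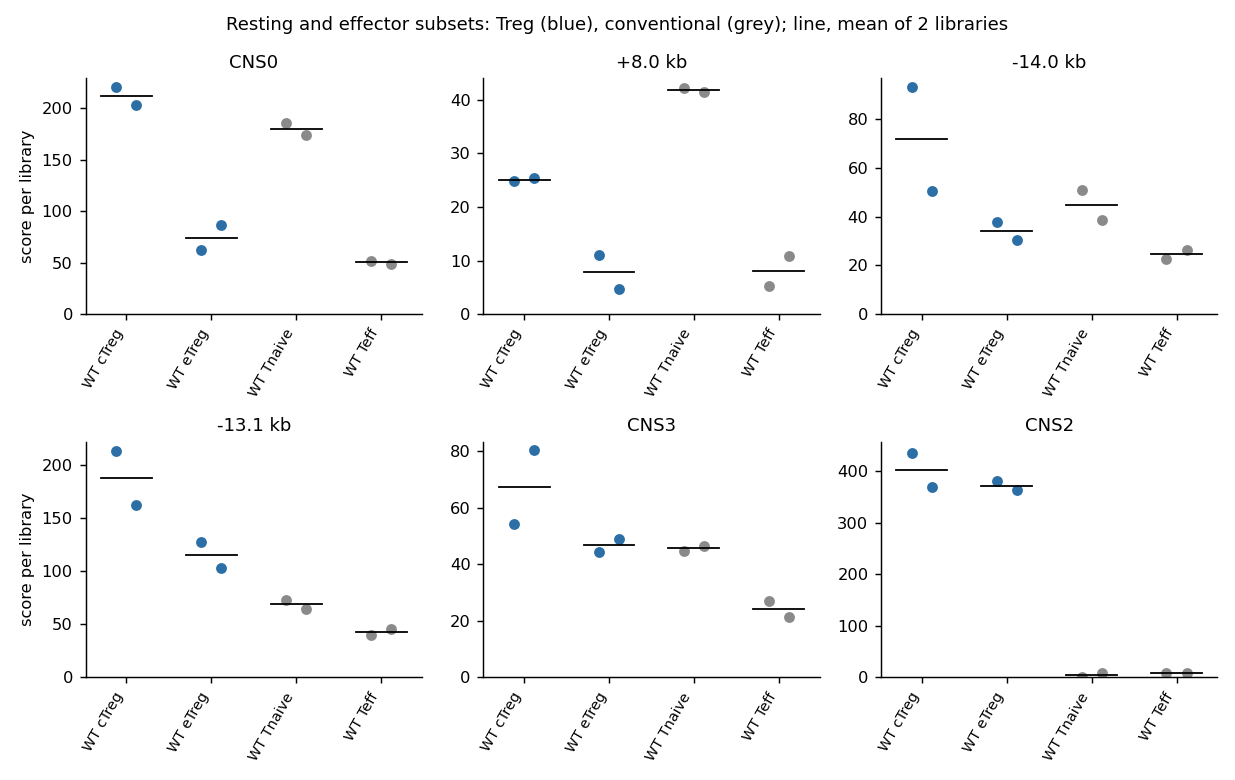
Score of each library at 6 locus peaks in cTreg, eTreg, Tnaive and Teff, with the mean of 2 libraries as a line and axes starting at 0. CNS0 has a mean of 212 in cTreg, 74.3 in eTreg, 179 in Tnaive and 50.1 in Teff, whereas CNS2 has means of 403 and 372 in the Treg subsets and 5.17 and 7.83 in the conventional ones.

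Treg without BATF, an AP-1 family factor that effector Treg need, differed from WT Treg at none of the 12 peaks by the test. CNS2 scored 316 and 336 in BATFKO Treg and 365 and 392 in WT Treg. The log2 difference of -0.22 was not called, and its 95% interval ran from -1.28 to 0.85. The SD of log2(score + 1) was 0.064 and 0.071 in these groups, against 1.52 in Tnaive, 0.93 in Tconv and 0.54 with BATF virus. The interval uses the spread pooled over all 13 groups, so it does not measure the spread of these libraries alone. The promoter scored 66.4 and 70.7 against 55.0 and 87.8 (log2 -0.020, interval -0.65 to 0.61). CNS0 scored 166 and 182 in BATFKO Treg and 136 and 154 in WT Treg, and was not called (log2 0.26, interval -0.13 to 0.65). None of the 12 peaks was called with limma or with edgeR, and none had an unadjusted p under 0.05, where 1.49% of all peaks were called in either direction.

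Foxp3R397W Treg, whose Foxp3 carries a substitution in the forkhead domain that binds DNA, differed from its control at none of the 12 peaks by the main test. CNS2 scored 339 and 319 against 418 and 385 in the control pair, and the promoter 69.2 and 81.9 against 93.8 and 96.3. Both means were lower, but neither was called: the log2 differences were -0.28 (interval -1.35 to 0.78) and -0.33 (interval -0.96 to 0.30). Here too the CNS2 interval carries the spread pooled over all groups, while the SD of log2(score + 1) was 0.062 in Foxp3R397W and 0.082 in its control. The 3′ end lay the other way, with 109 and 128 in Foxp3R397W Treg and 39.5 and 72.2 in the control. The log2 difference was 1.13 (SE 0.44, interval 0.22 to 2.03), with an unadjusted p of 0.017 and an adjusted p of 0.21 in limma. It was called with edgeR (adjusted p = 0.0087), with a replicate block (0.048) and with only these groups in the limma fit (0.015). The pooled spread at this peak takes in Tnaive (SD of log2(score + 1) 1.38), against 0.16 in Foxp3R397W and 0.60 in its control. That peak overlaps both Foxp3 and Ccdc22, and its signal was not assigned to either gene. None of the 12 peaks was called in limma, where 2.63% of all peaks were, and the 3′ end was the only 1 with an unadjusted p under 0.05. CNS0 scored 306 and 234 against 283 and 241, and overlapped.

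The DKO Treg carried knockout alleles of Foxp3 and Batf. With mock virus alone they scored 665 and 1119 at CNS2 and 94.9 and 146 at the promoter. The mean score over all peaks was 156 and 185 in these libraries and 120 and 121 in WT Treg, which are ATAC by title. Levels are therefore not compared with WT Treg. No locus peak was called with Foxp3 virus against mock. CNS2 scored 655 and 993 with it (log2 -0.097, interval -1.16 to 0.97) and the promoter 118 and 127 (log2 0.062, interval -0.57 to 0.69). A retroviral Foxp3 cDNA can add reads at exons of the gene. Exons were not placed against the peaks, so whether it added reads was not tested. None of the 5 peaks that overlap the gene body was called higher: CNS3 scored 95.7 and 96.7 with Foxp3 virus against 65.4 and 78.2 with mock (log2 0.42, adjusted p = 0.55, limma), +8.0 kb 12.9 and 18.4 against 17.9 and 17.6, and the 3′ end 65.6 and 95.2 against 97.0 and 139. None had an unadjusted p under 0.05, 0 were called with edgeR, and 1.82% of all peaks were called. BATF virus likewise gave no call in limma or edgeR, with 0 at an unadjusted p under 0.05 and 3.49% of all peaks called. CNS0 scored 327 and 363 with BATF against 369 and 456 with mock (log2 -0.25, interval -0.64 to 0.14).

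With both viruses, CNS0 and the -12.0 kb peak were lower than with mock virus, and the promoter and CNS2 were not called. Same-numbered DKO libraries deviated together, and with library number as a block within them further upstream peaks were called lower. CNS0 scored 253 and 248.7 with both and 369 and 456 with mock, a log2 difference of -0.71 (SE 0.19, adjusted p = 0.0065, limma). The -12.0 kb peak scored 124 and 151 with both and 227 and 294 with mock, a log2 difference of -0.91 (SE 0.26, adjusted p = 0.0087, limma). Neither pair of groups overlapped. CNS2 scored 753 and 1040 with both (log2 0.037, interval -1.03 to 1.10) and the promoter 105 and 124 (log2 -0.042, interval -0.67 to 0.59). Of all peaks, 12.9% were higher and 10.5% lower, against 0 and 2 of the 12. With the block, 4 of the 12 were lower where 14.2% of all peaks were: -12.0 kb (adjusted p = 1.1e-05), CNS0 (8.7e-05), -7.1 kb (log2 -0.49, 0.0058) and -4.9 kb (log2 -0.34, 0.023). The CNS0 call was lost without mock library 2 (adjusted p = 0.11), and the -12.0 kb call without mock library 2 (0.13) or joint-virus library 1 (0.086). Against Foxp3 virus alone, 2 peaks were lower, -12.0 kb by a log2 difference of -0.84 (adjusted p = 0.020, limma) and CNS0 by -0.55 (adjusted p = 0.041, limma), with 10.6% of all peaks higher and 7.54% lower. With the block -7.1 kb was lower too (log2 -0.45, adjusted p = 0.016), where 10.0% of all peaks were lower. The -12.0 kb call was lost without joint-virus library 1 (0.14) or Foxp3 library 2 (0.20), and the CNS0 call without either of them (0.11 and 0.37) or joint-virus library 2 (0.15). The 3 comparisons with both viruses share the joint-virus libraries, and those with mock share the mock libraries. Against BATF virus alone, -14.0 kb was lower, with 65.1 and 131 against 163 and 221 (log2 -1.03, adjusted p = 0.037, limma), and 7.08% of all peaks were higher and 7.01% lower. With the block -12.0 kb (log2 -0.59, adjusted p = 0.0052), CNS0 (-0.45, 0.017) and -7.1 kb (-0.66, 4.4e-04) were lower as well, where 9.05% of all peaks were. These 3 were also called with edgeR (adjusted p 0.040, 0.043 and 0.042). The limma call at -14.0 kb was lost without any 1 of BATF library 1, BATF library 2 and joint-virus library 1. The joint effect departed from the sum of the single effects at none of the 12 peaks in limma or edgeR, with 0 at an unadjusted p under 0.05 and 1.09% of all peaks called. At CNS0 the departure was -0.30 (interval -0.86 to 0.25) and at -12.0 kb -0.52 (interval -1.26 to 0.22).

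Library number moved with the scores in the DKO groups. Library 2 exceeded library 1 at 11 of 12 locus peaks with mock, Foxp3 and BATF virus and at 10 with both. The median log2 difference over the locus was 0.37 to 0.56, while over all peaks it was 0.024 to 0.063. Such a lean was not confined to the DKO groups. Library 2 was higher at 11 of 12 peaks in BATFKO Treg and 9 in WT Treg (median log2 difference 0.14 and 0.16). It was higher at only 2 in Foxp3R397W Treg and 3 in their control (-0.24 and -0.22), and at 4 to 7 in the remaining groups. CNS2 differed between the mock libraries by 665 against 1119, a wider gap than between any pair of DKO group means. Marker peaks moved with the joint viruses as well. The 77 peaks at the naive and central genes Ccr7, Lef1 and Tcf7 summed to 10827 to 13571.5 with both viruses against 18343 to 25285 with mock, and 17 peaks at 3 of 4 myeloid genes to 1414 to 1703 against 798 to 1005. The 67 effector peaks summed to 11522 to 14397 against 7759 to 8585, and the 4 B cell peaks to 393 to 442 against 182 to 191. A fit of the DKO libraries alone, with library number as a block, left the log2 differences at CNS0 and -12.0 kb unchanged. It could not do otherwise, since each group holds 1 library of each number. The SE there, for both viruses against mock, was 0.14 and 0.16. The part of subset make-up and of other cell types in these differences was not tested.

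**Figure D4:**
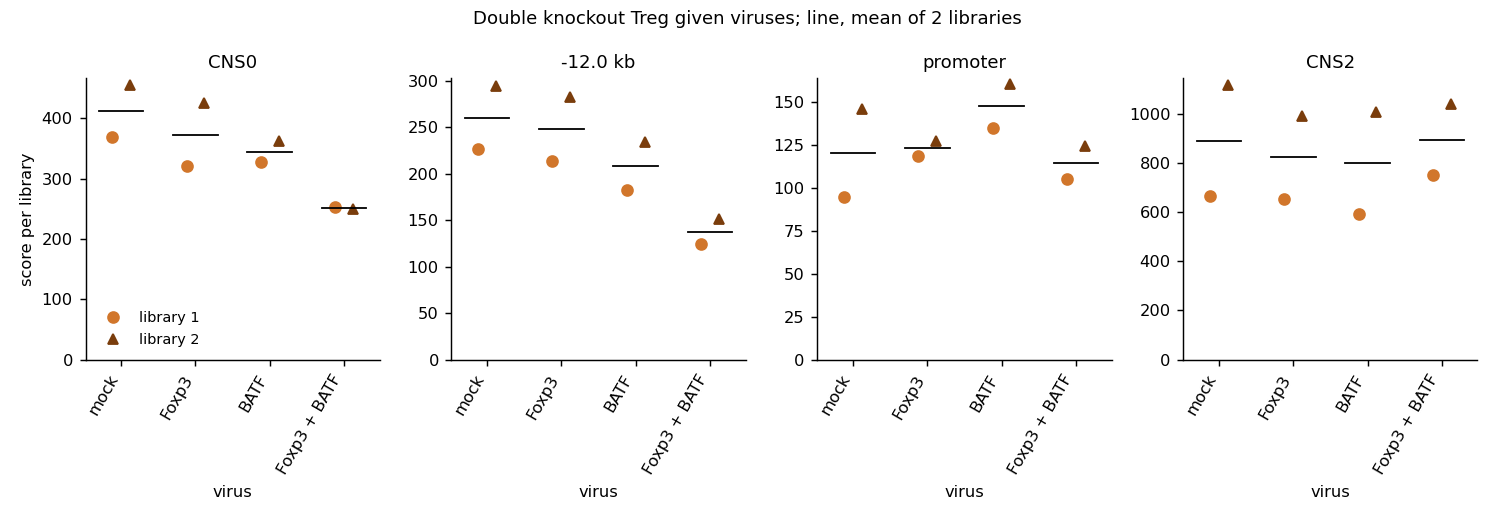
Score of each library at CNS0, -12.0 kb, the promoter and CNS2 in DKO Treg by virus, with circles for library 1, triangles for library 2 and the mean as a line. CNS0 and -12.0 kb are lowest with both viruses (251 and 138), and the CNS2 means lie between 802 and 897.

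The genes that act on Foxp3 were also read, as a list of 28 regulators with 505 peaks, among them Runx1, Cbfb, Stat5b, Foxo1, Satb1, Nr4a1, Tet2 and Il2ra. In WT Treg against Tconv, 61 of these peaks (12.1%) were higher and 48 (9.505%) lower, near the 10.1% and 9.92% of all peaks, with a median log2 difference of 0.036 against 0.0055 over all peaks. In cTreg against Tnaive 60 (11.9%) were higher and 21 (4.16%) lower, against 8.80% and 7.82% of all peaks. In eTreg against Teff 51 (10.1%) were higher and 66 (13.1%) lower, against 8.40% and 9.07%. In eTreg against cTreg 88 (17.4%) were higher and 139 (27.52%) lower, against 19.7% and 17.4% of all peaks (median -0.15 against 0.026). In Teff against Tnaive 108 (21.4%) were higher and 136 (26.9%) lower, against 20.7% and 19.6% (median -0.077 against -0.0073). With both viruses against mock, 58 (11.49%) were higher and 102 (20.2%) lower, against 12.9% and 10.5% of all peaks (median -0.18 against -0.044). A second list of 14 surface and function genes of Treg, such as Ctla4, Ikzf2, Lrrc32 and Nrp1, held 199 peaks, and Il2ra is in both lists. Of these 89 (44.7%) were higher and 10 (5.03%) lower in WT Treg than in Tconv, with a median of 0.75 against 0.0055 over all peaks. In Foxp3R397W Treg 0 were higher and 12 (6.03%) lower, against 0.776% and 1.85% of all peaks (median -0.25 against 0.031). In BATFKO Treg 0 were higher and 8 (4.02%) lower, against 0.0620% and 1.43% of all peaks (median -0.062 against 0.026). With both viruses against mock 46 (23.1%) were higher and 17 (8.54%) lower, against 12.9% and 10.5% of all peaks. With BATF virus against mock 15 (7.54%) were higher and 0 lower, where 3.49% of all peaks were called in either direction.

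**Figure D5:**
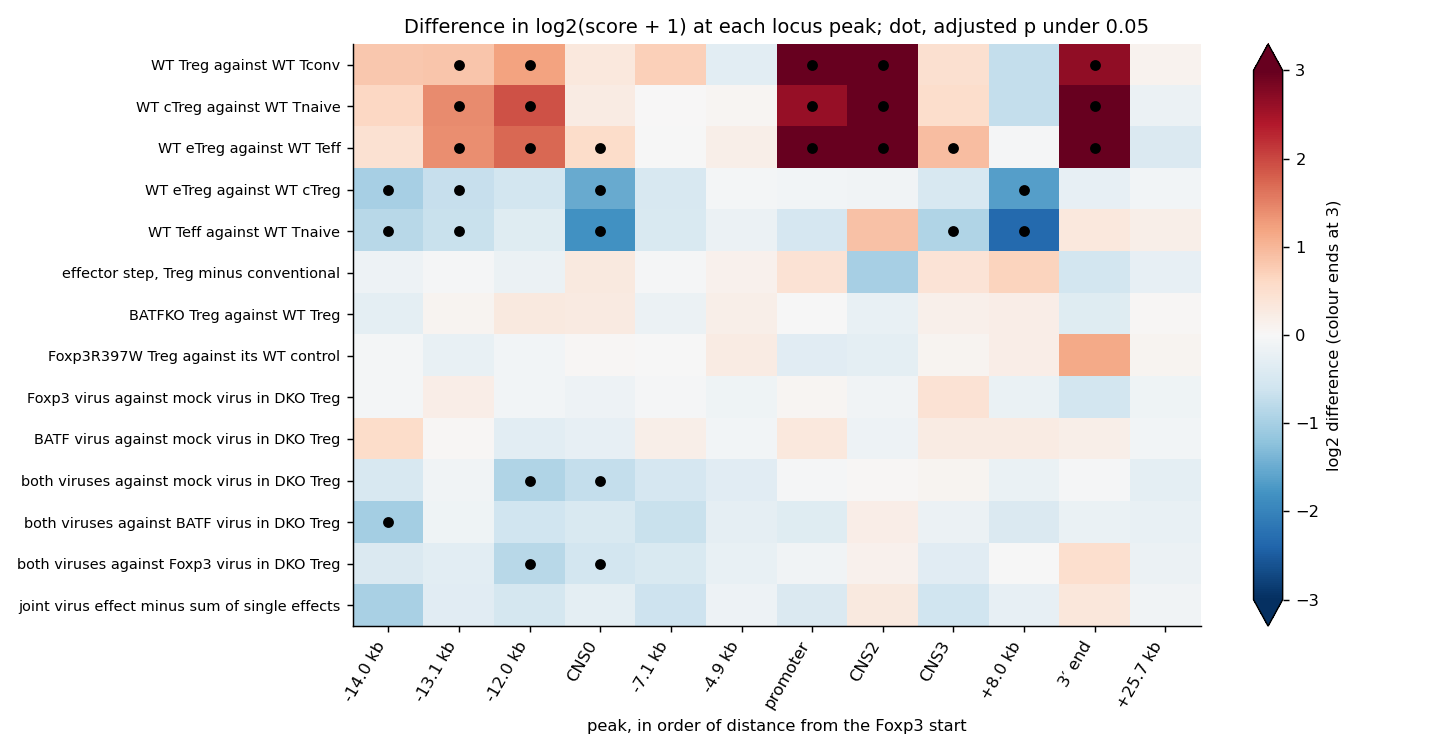
Difference in log2(score + 1) for each of the 14 contrasts (rows) at each of the 12 peaks (columns, in genomic order), with a dot where the adjusted p was under 0.05. The Treg contrasts fill the promoter, CNS2 and 3′ end columns, the effector contrasts CNS0 and +8.0 kb, and the rows for BATFKO, Foxp3R397W and the single viruses hold no dot.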

How the data were processed

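Accessibility was read from a table of normalized peak scores that the authors deposited for 26 libraries (13 groups of 2). The score is a signal: in each library of the deposited table every value was a whole number of reads times 1 factor (100% whole to within 0.02 reads). Per the submitters' processing notes the build was mm10. The notes name DiffBind (versions 3.4.11 and 3.0.15), edgeR (3.38.4 and 3.36.0), the aligner Bowtie2 2.4.1 and the peak caller MACS2 2.2.7.1, without their settings. Per the labels' protocols, ATAC and omniATAC libraries differ in lysis, transposase and amplification.

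Groups follow the titles and column names, and columns named as Foxp3 WT Treg were read as the Foxp3R397W control. All peaks entered 1 fit with limma 3.58.1 in R 4.3.3 (trend and robust options) on log2(score + 1). It had no replicate block and 13 residual degrees of freedom. Each peak's spread was pooled over all groups, so intervals at CNS2 and the 3′ end carry that of conventional libraries with few reads. Benjamini-Hochberg adjustment ran over all 69316 peaks within each of the 14 contrasts, and not across them. Fold changes on this scale understate those of low peaks, and reads limit them further: the lowest locus values rest on 1 read, and a count of 0 would allow 3. The median SE of a difference was 0.34.

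The named items are Foxp3 and every peak within 20 kb of it. Elements were named from textbook windows (CNS2 +4.2 to +4.8 kb, CNS3 +6.9 to +7.1 kb, CNS0 -9.5 to -7.5 kb). One further marker of the naive and central cells is not reported here. Genes of like pattern are the 5 with the highest r. Peaks went to RefSeq protein-coding genes within 100 kb. The members and lists were chosen with earlier results of these data known. Alternatives were a pseudocount of 5, a mean score of at least 10, quantile normalization, edgeR 4.0.16 on recovered reads, plain eBayes, a replicate block, fits of single contrasts, the 22-library table, and leaving out each library. A block within the DKO libraries was added after seeing the data: same-numbered DKO libraries deviated together over all peaks (r 0.15 to 0.21 over 6 pairs of groups), though no label says that a number marks a shared batch. Over all groups 9 of 78 pairs had an r over 0.1, and the highest, 0.33, lay above those of the 6 DKO pairs. The fit was tested on simulated data.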

Additional observations from a re-analysis of the deposited data

Results flagged for a closer look

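The 4 libraries found only in the 22-library table enter none of the comparisons above, and stand out at CNS2. The 2 named there Tnaive averaged 1059.8 and the 2 named Teff averaged 714, against 6.21 in the WT Tconv libraries of the same table and 311 in its WT Treg. Both values lie above those of conventional cells, which is what set them apart. The height above WT Treg goes with the scale of the libraries: the mean score over all peaks was 307 to 323 in them against 93.9 and 105, and at -4.9 kb they averaged 1007.5 and 1098 against 376. Their names, and those of the 12 libraries that carry different names in the tables, have to be settled before any Foxp3KO comparison at this locus is read.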

How the results depend on the processing

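There were 14 counts of called locus peaks. Under the planned settings other than leaving out a library, that for WT Treg against Tconv stayed within 1.5 times its main value. Those for BATFKO and for each single virus stayed at 0. No peak of the 22-library table matched the promoter, so its counts leave the promoter out. The names of the 22-library table changed 5 counts: cTreg against Tnaive, eTreg against Teff, eTreg against cTreg and Teff against Tnaive had 0 calls, and Foxp3R397W had 4. Under those names the log2 differences turned direction at -13.1 kb (-0.075), -12.0 kb (-0.40) and CNS2 (-0.064) in cTreg against Tnaive, at -13.1 kb (-0.077), -12.0 kb (-0.051) and CNS0 (-0.040) in eTreg against Teff, at +8.0 kb in eTreg against cTreg (0.15), at CNS0 (0.035) and +8.0 kb (0.24) in Teff against Tnaive, and at -14.0 kb (1.06) and -13.1 kb (0.72) in Foxp3R397W. Each of those names stands there for other libraries.

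Teff against Tnaive had 3 calls with edgeR and 3 with plain eBayes. Foxp3R397W had 1 with edgeR, 1 with the replicate block and 1 with only its groups in the fit. Both viruses against BATF had 0 with quantile normalization, 4 with edgeR and 0 with plain eBayes, and both against Foxp3 had 1 with quantile normalization, 1 with plain eBayes and 1 with only its groups. The cause was not tested. Leaving out single libraries gave 3 to 5 calls for WT Treg against Tconv, 1 to 4 for eTreg against cTreg, 3 to 6 for Teff against Tnaive, 0 to 1 for the interaction, 0 to 3 for both viruses against mock, 0 to 2 against BATF and 0 to 2 against Foxp3.

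A replicate block within the DKO libraries gave 4 calls for both viruses against mock, 4 against BATF and 3 against Foxp3. The replicate block over all groups changed no other count. Quantile normalization raised the higher share of BATFKO calls over all peaks from 4.17% to 20.1%, and lowered that of departures from additivity from 53.6% to 41.3%.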
